A study of Mus musculus with 4 samples.

Results

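Lymphoid-primed multipotent progenitors (LMPPs) taken 3 days after RBPJ had been switched on were compared with LMPPs in which RBPJ stayed off, across every gene that was measurable in either library. LMPPs are early blood progenitors that carry lymphoid and myeloid potential and have largely lost the capacity to make red cells and platelets. The series holds single-cell transcriptomes in 4 droplet libraries (10x Genomics), each of LMPPs that had been sorted out of C57BL/6 bone marrow by fluorescence. The "RBPJ 3 days induced" library came from mice that began without RBPJ and were made to express it by doxycycline for 3 days, and the "RBPJ uninduced" library came from mice of that kind in which it stayed off. The "RBPJ 6 days induced" library, from mice induced for 6 days, and the "Control" library, from mice that expressed RBPJ throughout, are given only as levels beside them.

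Induction began with an intraperitoneal dose of doxycycline (2 mg/ml) and went on with the drug in the water the mice drank (1 mg/ml). The labels carry this text for every library, so whether the uninduced and control mice received the drug is not clear from them. They give neither the number of mice behind a library, nor their age, nor the promoter that drives the induced RBPJ, nor how RBPJ was removed. Each group is 1 library, so no difference below has a replicate check and no test was made. Animals, drug, day of preparation and library cannot be told apart as sources of any difference. The 95% intervals cover counting error only, and "higher" and "lower" describe the size of a difference between these libraries.

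Cells were those of the authors' cell sets, apart from cells with 10 or more UMIs (the barcodes that count captured RNA molecules) in total from S100a8, S100a9, Hba-a1, Hbb-bs, Elane and Pf4, which mark neutrophils, red cells and platelets. This kept 1275 of 1292 cells at 3 days and 2735 of 2769 uninduced cells, 4010 of the 8883 cells of the series. Their UMIs were summed to 1 profile per library and scaled by the library total to CPM, and 7083 of 27998 genes reached 10 CPM in either library. Differences are given as log2(CPM + 1) at 3 days minus uninduced, and folds as ratios of CPM.

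Notch receptors act on genes by way of RBPJ, which binds DNA. A Notch receptor bound by its ligand is cut, and its inner part enters the nucleus, where it joins RBPJ and turns RBPJ from a repressor into an activator of genes such as Hes1. In blood formation this pathway is known above all for directing lymphoid progenitors to the T cell lineage.

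The kept cells summed to 10499558 UMIs at 3 days and 20653811 UMIs uninduced, with a median of 7655 UMIs per cell at 3 days and 6774 uninduced. Mitochondrially encoded genes made up a median of 2.99% of a cell's UMIs at 3 days and 2.76% uninduced. Both libraries shared 2 cell barcodes. The cells carried the transcripts that define LMPPs. Flt3, a growth factor receptor that marks such cells, stood at 210 CPM at 3 days and 193 CPM uninduced, and Dntt, the polymerase that adds bases to antigen receptor joints, at 841 CPM at 3 days and 675 CPM uninduced. Of 20 T lineage markers in the matrices 19 were below 10 CPM in both libraries, as were 14 of 17 B lineage, 14 of 18 erythroid and 10 of 15 megakaryocyte markers. Over all genes, 7083 of 27998 reached 10 CPM in either library. Cells rich in Hba-a1, Hbb-bs and Pf4, which are on the erythroid and megakaryocyte lists, had been left out. Low levels of those lists were therefore in part fixed by that choice.

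Rbpj itself was the most different gene. It was counted at 472 CPM at 3 days, against 11.3 CPM in uninduced cells, a 41.8-fold difference (36.7 to 47.9). The 6-day library had 474 CPM and the control library 17.8 CPM, so both induced libraries stood at the same level, far above the control library. The uninduced level was 0.635 of the control level (0.539 to 0.747). Whether the counted 3′ end of Rbpj lies in the part removed from the gene is not stated in the labels, and the remaining uninduced transcripts were therefore no check of the deletion. Rbpj lies on chromosome 5 (chr5:53466152-53657362, plus strand, GRCm38), and 24.5% of the words of 31 bases that make up the 500 bases at its transcripts' ends occur in another gene as well, so a part of its counts is uncertain.

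Rbpj transcripts were unevenly spread over the 3-day cells. With each cell thinned to 4700 UMIs, which left out 201 shallower cells at 3 days and 666 uninduced, 41.9% of 1074 cells at 3 days (38.9 to 44.9, exact binomial) and 5.17% of 2069 uninduced cells (4.26 to 6.22) had an Rbpj UMI. Unthinned, the shares were 43.9% at 3 days and 6.95% uninduced. Cells with at least 3 Rbpj UMIs made up 21.5% at 3 days and 0.0483% uninduced. RNA outside cells, read from barcodes with 10 to 100 UMIs, held Rbpj at 291 CPM at 3 days (92 UMIs) and 4.30 CPM uninduced (2 UMIs). The cells contain no type known to lack the transcript that could serve as background. Cells with a UMI of the cycling genes Mki67, Top2a, Ccnb1, Cdk1, Ube2c or Cenpf carried more Rbpj at 3 days, 578 CPM (550 to 608), than 3-day cells without such a UMI, 253 CPM (234 to 275). The same split gave 12.2 and 12.3 CPM in uninduced cells.

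The libraries were otherwise close. Genes at least 2-fold higher at 3 days numbered 8 with Rbpj, 0.113% of the 7083 genes, and 4 stood at least 2-fold lower, 0.0565%. At 1.5-fold, 29 genes, of which 28 other than Rbpj, were higher (0.409%) and 56 were lower (0.791%), together 1.2%, and the other 6998 genes, 98.8%, lay within 1.5-fold. The median difference over all genes was -0.01, 90% of genes lay between -0.32 and 0.28, and 47.7% lay above 0.

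**Figure D1:**
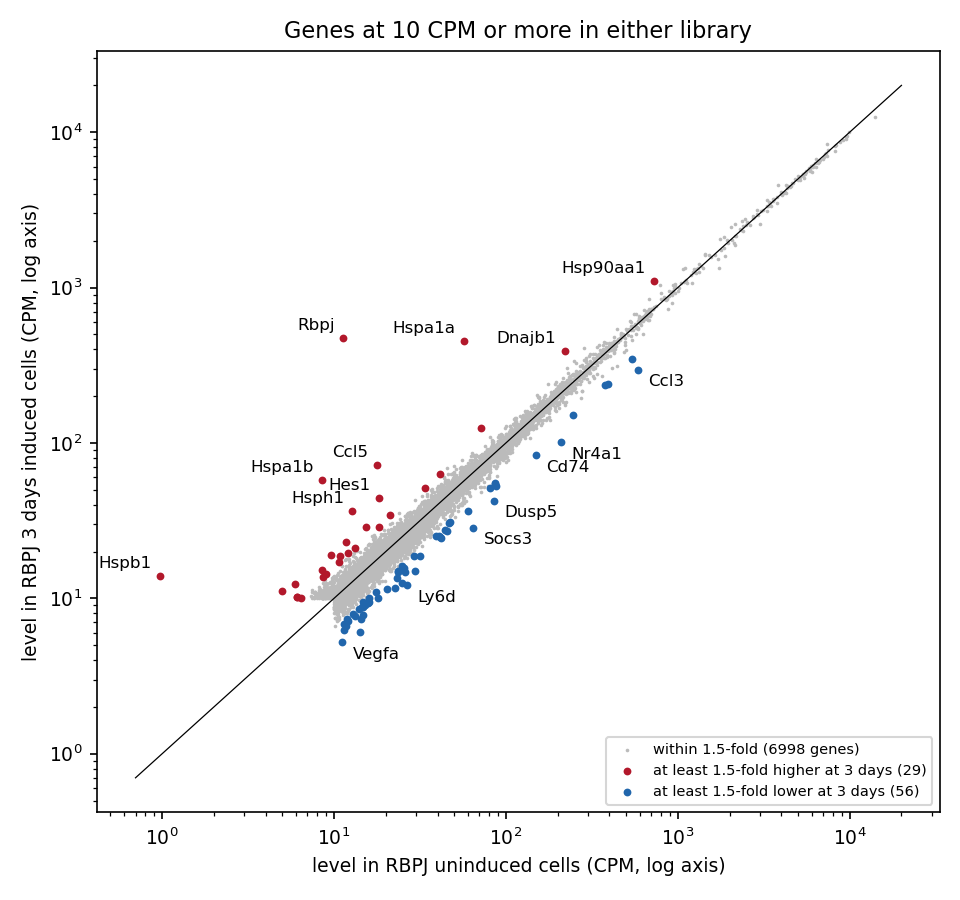
Level of each of 7083 genes in RBPJ 3 days induced cells (y axis, CPM, log axis) against RBPJ uninduced cells (x axis, CPM, log axis), with 1 library per axis. Most of the 29 red genes above the line of equality lie close to the grey band, whereas Rbpj, Hspa1a, Hspa1b and Hspb1 stand well away from it, and the 56 blue genes below the line reach down to 0.433 of the uninduced level.

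The leading genes after Rbpj were those of the heat shock response, the program by which cells make chaperones when proteins unfold. It is driven by heat shock factors, which bind inverted repeats of the bases GAA upstream of chaperone genes. The windows of 250 bases upstream of the 3 genes with the highest folds in this group are printed here because they carry that repeat. They are from RefSeq (GRCm38.p6), each read 5′ to 3′ on the strand of the gene, and capitals mark the two-unit element. They cover chr17:34972157-34972406 (minus strand) for Hspa1a, chr17:34959239-34959488 (minus strand) for Hspa1b and chr5:135887669-135887918 (plus strand) for Hspb1.
Hspa1a: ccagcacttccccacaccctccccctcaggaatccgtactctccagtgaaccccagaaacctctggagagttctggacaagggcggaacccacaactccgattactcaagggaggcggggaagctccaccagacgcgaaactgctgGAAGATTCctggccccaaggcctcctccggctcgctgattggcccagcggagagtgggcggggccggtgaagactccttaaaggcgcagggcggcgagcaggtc
Hspa1b: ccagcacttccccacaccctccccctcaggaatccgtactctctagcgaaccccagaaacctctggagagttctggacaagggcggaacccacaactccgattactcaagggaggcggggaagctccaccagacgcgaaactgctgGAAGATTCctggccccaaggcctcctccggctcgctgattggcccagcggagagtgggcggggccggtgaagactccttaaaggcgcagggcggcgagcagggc
Hspb1: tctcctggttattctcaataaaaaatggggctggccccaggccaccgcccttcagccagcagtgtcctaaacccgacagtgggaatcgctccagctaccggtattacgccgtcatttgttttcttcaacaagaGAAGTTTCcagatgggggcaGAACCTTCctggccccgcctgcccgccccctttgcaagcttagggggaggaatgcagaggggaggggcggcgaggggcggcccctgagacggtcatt

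The Hspa1a and Hspa1b windows, of neighbouring genes that encode near-identical inducible chaperones, match at 247 of 250 bases and differ at C44T, T47C and T249G (Hspa1a base, position from 1 at the 5′ end, Hspa1b base). Each holds 1 two-unit element, starting 104 bases upstream of the gene, and the Hspb1 window holds 2, the nearer starting 97 bases upstream. The motif was searched as GAANNTTC and TTCNNGAA on both strands, after the forms with a further unit at the same spacing had matched none of the higher genes. The two-unit forms lie in 12.8% of 32851 RefSeq promoter windows of this length and in 10.1% of the 7052 of genes at 10 CPM or more. Promoter windows were found for 22 of the 29 higher genes, of which 7 (31.8%) hold it, and for 39 of the 56 lower genes, of which 4 (10.3%) hold it. Among the 6 chaperone genes at least 1.5-fold higher that have a window, 5 hold it (Dnajb4, Hspa1a, Hspa1b, Hspb1 and Hsph1). These 5 are among the 7 higher genes above, where only 2610035D17Rik and Mttp are not chaperone genes. The near-identical Hspa1a and Hspa1b windows count separately. Of the 24 measurable chaperone genes with a window, called or not, 11 (45.8%) hold it. A match is a description of the letters and not a shown binding site. The core RBPJ motif, TGGGAA on either strand, lies in 21.6% of all windows and in 19.3% of those of genes at 10 CPM or more. It lies in 6 of the 22 windows of higher genes (27.3%), that of Rbpj among them. Of the 39 windows of lower genes, 9 hold it (23.1%).

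Hspa1a was counted at 451 CPM at 3 days, against 57.0 CPM uninduced, 7.91-fold higher (7.42 to 8.44). Hspa1b had 57.6 CPM at 3 days and 8.47 CPM uninduced, 6.80-fold higher (5.74 to 8.09). The 6-day library stood at 19.3 CPM for Hspa1a and 3.45 CPM for Hspa1b, and the control library at 10.8 and 2.31 CPM. For both genes the 3-day level was the highest of the 4 libraries and the uninduced level the next. Hspa1a and Hspa1b share few end words (0% and 2.15% of Hspa1a and Hspa1b words occur in another gene), and a noncoding gene, Gm20481, overlaps Hspa1a on the opposite strand.

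Hspb1, a small heat shock protein that holds unfolded proteins in solution, had 13.9 CPM at 3 days (146 UMIs) and 0.968 CPM uninduced (20 UMIs), 14.4-fold higher (8.97 to 24.2). It was close to 0 in the 6-day library at 0.0585 CPM and in the control library at 0.128 CPM. These counts were held by few cells, since the 10 cells richest in Hspb1 gave 42.5% of its UMIs at 3 days and 75% uninduced, and 45.0% of its end words occur in another gene. Hsph1, a chaperone that helps the Hspa1 proteins to release their clients, had 36.4 CPM at 3 days and 12.8 CPM uninduced, 2.85-fold higher (2.43 to 3.34), against 14.8 CPM at 6 days and 15.1 CPM in the control library. Dnajb1, the co-chaperone that hands proteins to them, had 389 CPM at 3 days and 220 CPM uninduced, 1.77-fold higher (1.69 to 1.84).

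Of 36 heat shock and chaperone genes listed, 29 reached 10 CPM, and 7 of these were at least 1.5-fold higher and none lower, where 0.409% and 0.791% of all genes were. The other called members, Hsp90aa1 at 1100 CPM at 3 days and 728 CPM uninduced and Dnajb4 at 51.2 CPM at 3 days and 33.7 CPM uninduced, were singled out after their values were seen. In all, 27 of the 29 lay above 0, with a median difference of 0.26 beside -0.01 over all genes. Hspd1, a mitochondrial chaperonin, had 335 CPM at 3 days and 247 CPM uninduced, and Hspa8, the constitutive relative of Hspa1a, had 2582 CPM at 3 days and 2143 CPM uninduced. The members below 0 were Hsf1, the heat shock factor itself, with 21.9 CPM at 3 days and 23.8 CPM uninduced, and Hspa4l, with 15.4 CPM at 3 days and 15.6 CPM uninduced. The list's median lay between 0.23 and 0.30 in all 15 alternative settings.

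The heat shock genes differed in how many 3-day cells carried them. In thinned cells, 61.5% had an Hspa1a UMI at 3 days (58.5 to 64.4) and 12.9% uninduced (11.5 to 14.4), and unthinned the shares were 69.6% at 3 days and 16% uninduced. Cells with 3 or more Hspa1a UMIs made up 30.4% at 3 days and 2.95% uninduced. A Dnajb1 UMI was present in 69.7% of thinned cells at 3 days and 54.5% uninduced, and unthinned in 82.0% at 3 days and 67.6% uninduced. The other 3 were seen in a minority of thinned cells, Hspa1b in 22% at 3 days and 3.00% uninduced, Hsph1 in 15.2% at 3 days and 5.80% uninduced, and Hspb1 in 4.28% at 3 days and 0.532% uninduced. The share with an Hspa1a UMI was 4.91% at 6 days and 3.47% in the control library. RNA outside cells held Hspa1a at 637 CPM at 3 days and 75.3 CPM uninduced, above the level in the cells of each library, and how much of the cells' share it gave was not tested. Summed over Hspa1a, Hspa1b, Hspb1, Hsph1 and Dnajb1, a thinned cell carried a median of 3 UMIs at 3 days and 1 uninduced, and the upper 5% of cells began at 13 UMIs at 3 days and 5 uninduced. With the cells that had 10 or more of these UMIs left out, a choice made after seeing the data, 896 cells at 3 days and 2644 uninduced cells remained, and the differences of the genes so selected were smaller by construction. Hspa1a was at 2.34 in place of 2.96, Hspa1b at 2.40 in place of 2.63, Hsph1 at 1.10 in place of 1.44, Hspb1 at 1.57 in place of 2.92 and Dnajb1 at 0.32 in place of 0.82. Dnajb1, Hsp90aa1 (0.46 in place of 0.59) and Dnajb4 (0.53 in place of 0.59) were then within 1.5-fold.

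**Figure D2:**
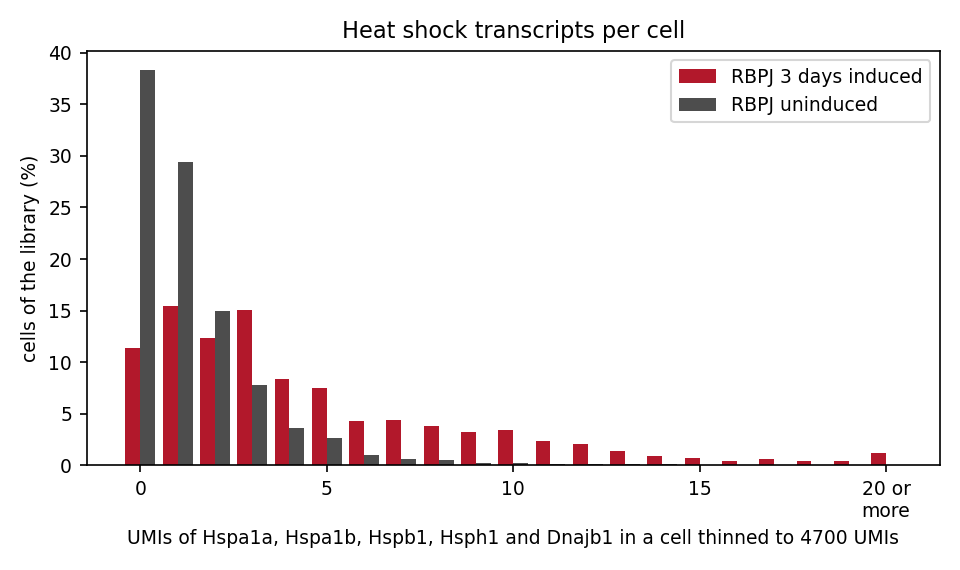
Share of thinned cells (y axis, % of the library) by the number of UMIs of Hspa1a, Hspa1b, Hspb1, Hsph1 and Dnajb1 in the cell (x axis), with RBPJ 3 days induced in red (1074 cells) left of RBPJ uninduced in grey (2069 cells). The 3-day cells carried more, with a median of 3 UMIs against 1, and a tail of cells reaches 20 or more.

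Other genes of protein upkeep lay within 1.5-fold. All 27 proteasome subunit genes, which encode the protease that breaks down tagged proteins, lay above 0, where 47.7% of all genes did, with a median of 0.13 and a range of 0.01 to 0.45, and none passed 1.5-fold. Psmc2, an ATPase of the proteasome cap, had 60.3 CPM at 3 days and 43.9 CPM uninduced, and Psmd1, a subunit of the cap's base, had 63.3 CPM at 3 days and 48.1 CPM uninduced. Summed over the list, proteasome transcripts came to 4196 CPM at 3 days and 3813 CPM uninduced, against 3552 CPM at 6 days and 3717 CPM in the control library. Of 16 measurable endoplasmic reticulum chaperone genes 12 lay above 0, with a median of 0.09. The integrated stress response list, which holds targets of the factor Atf4, had 11 of 17 measurable members above 0. Their median was 0.12, and none of them passed 1.5-fold.

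Hes1, the direct target by which Notch activity is most often read, was the only member of the Notch target list at least 1.5-fold higher. It had 44.1 CPM at 3 days and 18.2 CPM uninduced, 2.43-fold higher (2.11 to 2.79). The 6-day library had 132 CPM and the control library 90.0 CPM, so the 3-day level lay between the uninduced level and both others. In thinned cells 10.4% had a Hes1 UMI at 3 days (8.66 to 12.4) and 6.23% uninduced (5.23 to 7.36), against 25.8% at 6 days and 18.2% in the control library. Unthinned, the shares were 14.3% at 3 days and 8.23% uninduced. The RNA outside cells held Hes1 at 34.8 CPM at 3 days (11 UMIs) and 19.4 CPM uninduced (9 UMIs). These counts are too few to say how close they were to the cells' own levels.

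The other core Notch targets were low in both libraries. Hes5, a relative of Hes1, had 5.14 CPM at 3 days and 5.08 CPM uninduced. Nrarp, a feedback inhibitor of Notch, had 4.10 CPM at 3 days (43 UMIs) and 6.58 CPM uninduced (136 UMIs). Ptcra, the surrogate chain of the early T cell receptor, had 3.62 CPM at 3 days and 4.26 CPM uninduced. Hey1 and Dtx1 stood below 0.4 CPM in both libraries, and no UMI of Il2ra, Heyl or Notch3 was counted at 3 days, where 3 counts would be 0.286 CPM.

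Of 24 Notch target genes in the matrices 9 reached 10 CPM. Of these, 2 were at least 1.5-fold lower, where 0.791% of all genes were. Cd28, a co-stimulatory receptor of T cells, had 11.4 CPM at 3 days and 20.4 CPM uninduced, and the 6-day and control libraries, at 10.2 and 8.92 CPM, were close to the 3-day library. Cdkn1a, a cell cycle inhibitor, had 55.3 CPM at 3 days and 86.1 CPM uninduced, against 92.0 CPM at 6 days and 90.1 CPM in the control library. Myc, a growth regulator and Notch target in T cells, had 105 CPM at 3 days and 99.1 CPM uninduced, within 1.5-fold. Among 26 measurable Notch pathway components, Notch2, the receptor that directs marginal zone B cells, was the only gene past 1.5-fold, with 18.9 CPM at 3 days and 31.6 CPM uninduced, against 35.0 CPM at 6 days and 27.3 CPM in the control library. The medians were -0.12 for the targets and -0.11 for the components.

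Cd28 was not alone in its pattern. Plk2, on the p53 target list, had 14.9 CPM at 3 days and 23.6 CPM uninduced. Its 6-day and control levels were 16.1 and 13.1 CPM. Another gene had this pattern in the other direction. The long noncoding RNA 2610035D17Rik had 29.0 CPM at 3 days and 15.3 CPM uninduced, 1.89-fold higher (1.61 to 2.22), and the 6-day and control libraries stood at 30.1 and 30.5 CPM. It was spread over cells, since its 10 richest cells gave 8.88% of its UMIs at 3 days and 8.23% uninduced.

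**Figure D3:**
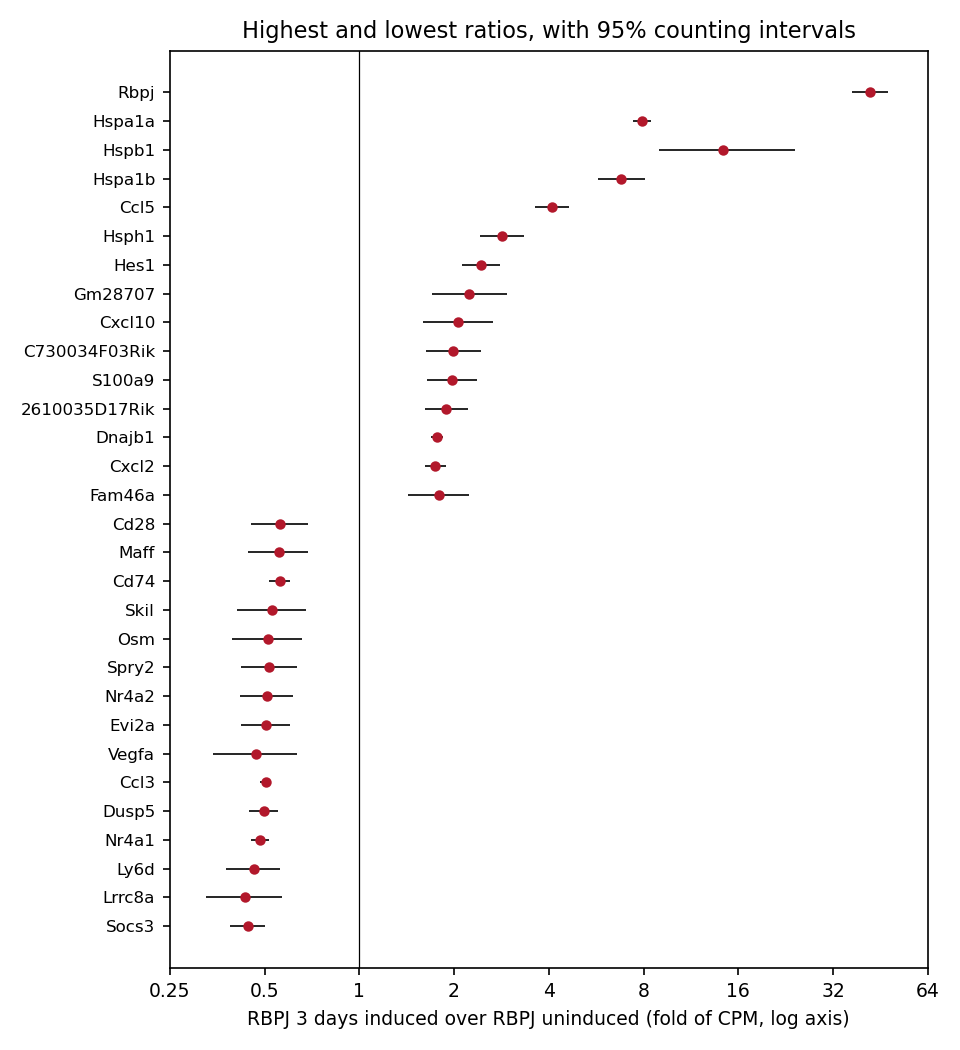
Fold of CPM in RBPJ 3 days induced over RBPJ uninduced cells (x axis, log axis) for the 15 genes highest and, under them, the 15 genes lowest by the difference in log2(CPM + 1). Bars are 95% counting intervals of 1 library against 1. Rbpj stands at 41.8-fold, Hspb1, Hspa1a and Hspa1b lie between 6.80- and 14.4-fold, and the 15 lower genes lie between 0.433 and 0.561.

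The 15 lowest genes included inhibitors of cytokine and MAP kinase signalling (Socs3, Dusp5 and Spry2) and Nr4a receptors, next to genes of other kinds such as Lrrc8a, Ly6d, Evi2a, Cd74 and Cd28. Socs3, which shuts off cytokine receptors that signal through STAT3, had 28.5 CPM at 3 days and 64.4 CPM uninduced, 0.442 of the uninduced level (0.388 to 0.501). The 6-day library had 51.2 CPM and the control library 72.2 CPM, so the 3-day level was the lowest of the 4. In thinned cells a Socs3 UMI was present in 10.4% at 3 days (8.66 to 12.4) and 18.9% uninduced (17.2 to 20.7), and unthinned in 14% at 3 days and 27.1% uninduced. Of 8 measurable cytokine feedback genes, 3 were at least 1.5-fold lower and none higher, where 0.791% and 0.409% of all genes were. The list's median was -0.34. Osm, the cytokine oncostatin M, had 7.33 CPM at 3 days and 14.3 CPM uninduced, and Pim1, a survival kinase induced by STAT factors, had 237 CPM at 3 days and 379 CPM uninduced.

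Both measurable Nr4a genes, orphan nuclear receptors induced by antigen receptor and growth factor signals, were lower. Nr4a1 had 101 CPM at 3 days and 209 CPM uninduced, 0.483 of the uninduced level (0.451 to 0.517), against 184 CPM at 6 days and 137 CPM in the control library. Nr4a2 had 12.6 CPM at 3 days and 24.7 CPM uninduced, against 19.6 CPM at 6 days and 27.7 CPM in the control library. An Nr4a1 UMI was found in 30.4% of thinned cells at 3 days and 50.2% uninduced, and unthinned in 41.4% at 3 days and 62.3% uninduced, so fewer 3-day cells carried it. RNA outside cells held Nr4a1 at 168 CPM at 3 days and 331 CPM uninduced.

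Inhibitors of the MAP kinase pathway gave a mixed picture. Dusp5, a nuclear phosphatase of the kinase ERK, had 42.5 CPM at 3 days and 85.4 CPM uninduced, 0.498 of the uninduced level (0.448 to 0.552), and Spry2, an inhibitor of receptor tyrosine kinases, had 11.7 CPM at 3 days and 22.6 CPM uninduced. Dusp6, the cytoplasmic ERK phosphatase, stood at 60.0 CPM at 3 days and 58.6 CPM uninduced. Over the 7 measurable members 2 were at least 1.5-fold lower, where 0.791% of all genes were, none was higher, and the median was -0.21. Both lower genes were near the uninduced level in the 6-day library, at 86.3 CPM for Dusp5 and 20.6 CPM for Spry2.

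Immediate early transcription factors had no common direction. Fos had 1344 CPM at 3 days and 1727 CPM uninduced, and its partner Jun had 1038 CPM at 3 days and 792 CPM uninduced, so these AP-1 subunits differed in opposite directions, both within 1.5-fold. Ier3, an early gene that limits apoptosis, was the only one of 14 measurable AP-1 and early growth response genes past 1.5-fold. It had 152 CPM at 3 days and 247 CPM uninduced. The 6-day and control libraries stood at 856 and 1007 CPM for Fos and 498 and 499 CPM for Jun. For Ier3 they stood at 260 and 194 CPM. Among 7 measurable Kruppel-like factors, Klf13 had 51.0 CPM at 3 days and 80.4 CPM uninduced, and Klf6 had 373 CPM at 3 days and 330 CPM uninduced, both far above the 111 CPM of Klf6 at 6 days and its 133 CPM in the control library. No NF-kB feedback gene of 12 passed 1.5-fold, and their median was -0.14. Maff, a small Maf factor, and Skil, a repressor of SMAD signalling, were lower, at 10.0 and 7.81 CPM at 3 days against 18.1 and 14.8 CPM uninduced.

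Of 9 measurable chemokine and secreted factor genes 3 stood past 1.5-fold on either side, with a median of -0.16. Over all genes 0.409% were higher and 0.791% lower. Ccl3 and Ccl4, which attract monocytes and lymphocytes, were lower. Ccl3 had 296 CPM at 3 days and 586 CPM uninduced, 0.504 of the uninduced level (0.485 to 0.525), against 633 CPM at 6 days and 391 CPM in the control library. Ccl4 had 349 CPM at 3 days and 543 CPM uninduced, against 532 CPM at 6 days and 349 CPM in the control library. Vegfa, the vascular growth factor on the same list, had 5.24 CPM at 3 days (55 UMIs) and 11.1 CPM uninduced (230 UMIs). Cxcl2, which attracts neutrophils, was higher, with 124 CPM at 3 days and 71.2 CPM uninduced, and 139 CPM at 6 days and 24.4 CPM in the control library.

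Ccl5, a chemokine of activated lymphocytes and of the response to viruses, had 72.3 CPM at 3 days and 17.7 CPM uninduced, 4.09-fold higher (3.61 to 4.65), but these transcripts lay in few cells. Cells with 3 or more Ccl5 UMIs, a class chosen after the values were seen, numbered 30 of 1275 at 3 days (2.35%, 1.59 to 3.34) and 19 of 2735 uninduced (0.695%, 0.419 to 1.08), and 14 of 2094 at 6 days and 9 of 2682 of the control library. They held 93.8% of all Ccl5 UMIs at 3 days and 79.5% uninduced. In the remaining cells Ccl5 stood at 4.59 CPM at 3 days and 3.65 CPM uninduced.

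The interferon-induced genes that were higher were counted in part in the same few cells. Cxcl10 had 12.3 CPM at 3 days and 5.96 CPM uninduced, Ifit1 had 18.7 CPM at 3 days and 10.9 CPM uninduced, and Rsad2 had 17.2 CPM at 3 days and 10.7 CPM uninduced. The Ccl5 cells held 55.0% of Cxcl10 UMIs at 3 days and 24.4% uninduced. They held 49.5% of Ifit1 UMIs at 3 days and 4.89% uninduced, and 43.1% of Rsad2 UMIs at 3 days and 6.31% uninduced. In all other cells Ifit1 stood at 9.67 CPM at 3 days and 10.4 CPM uninduced, and Rsad2 at 10.1 CPM at 3 days and 10.1 CPM uninduced, so neither was higher at 3 days there. Of 22 measurable interferon response genes Ifit1 and Rsad2 were the only ones past 1.5-fold, and the list's median was -0.07.

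Genes of MHC class II, which presents antigen and is known from dendritic cells and B cells, were mostly lower, some by less than 1.5-fold. Cd74, the chain that guides class II proteins, had 83.8 CPM at 3 days and 150 CPM uninduced, 0.559 of the uninduced level (0.518 to 0.602), against 113 CPM at 6 days and 114 CPM in the control library. H2-Eb1 had 24.3 CPM at 3 days and 41.6 CPM uninduced, and H2-Aa had 36.4 CPM at 3 days and 59.8 CPM uninduced. Both were also low in the 6-day library, at 24.3 and 37.2 CPM. These 3 of 9 measurable class II genes were at least 1.5-fold lower, where 0.791% of all genes were. None was higher, and the median was -0.29. H2-DMa (226 CPM at 3 days and 229 CPM uninduced), H2-Oa (25.3 CPM at 3 days and 27.3 CPM uninduced) and H2-Ob (69.4 CPM at 3 days and 62.3 CPM uninduced) lay within 1.5-fold. So did H2-DMb2, H2-DMb1 and H2-Ab1, at 0.687, 0.816 and 0.848 of the uninduced level. H2-Ob was the only measurable member with a level above the uninduced one. No MHC class I gene of 14 passed 1.5-fold (median -0.04). Dendritic cell markers, which share cells with class II, had a median of -0.11 over 11 measurable members and a summed level of 890 CPM at 3 days and 904 CPM uninduced, and their part in the class II difference was not tested.

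**Figure D4:**
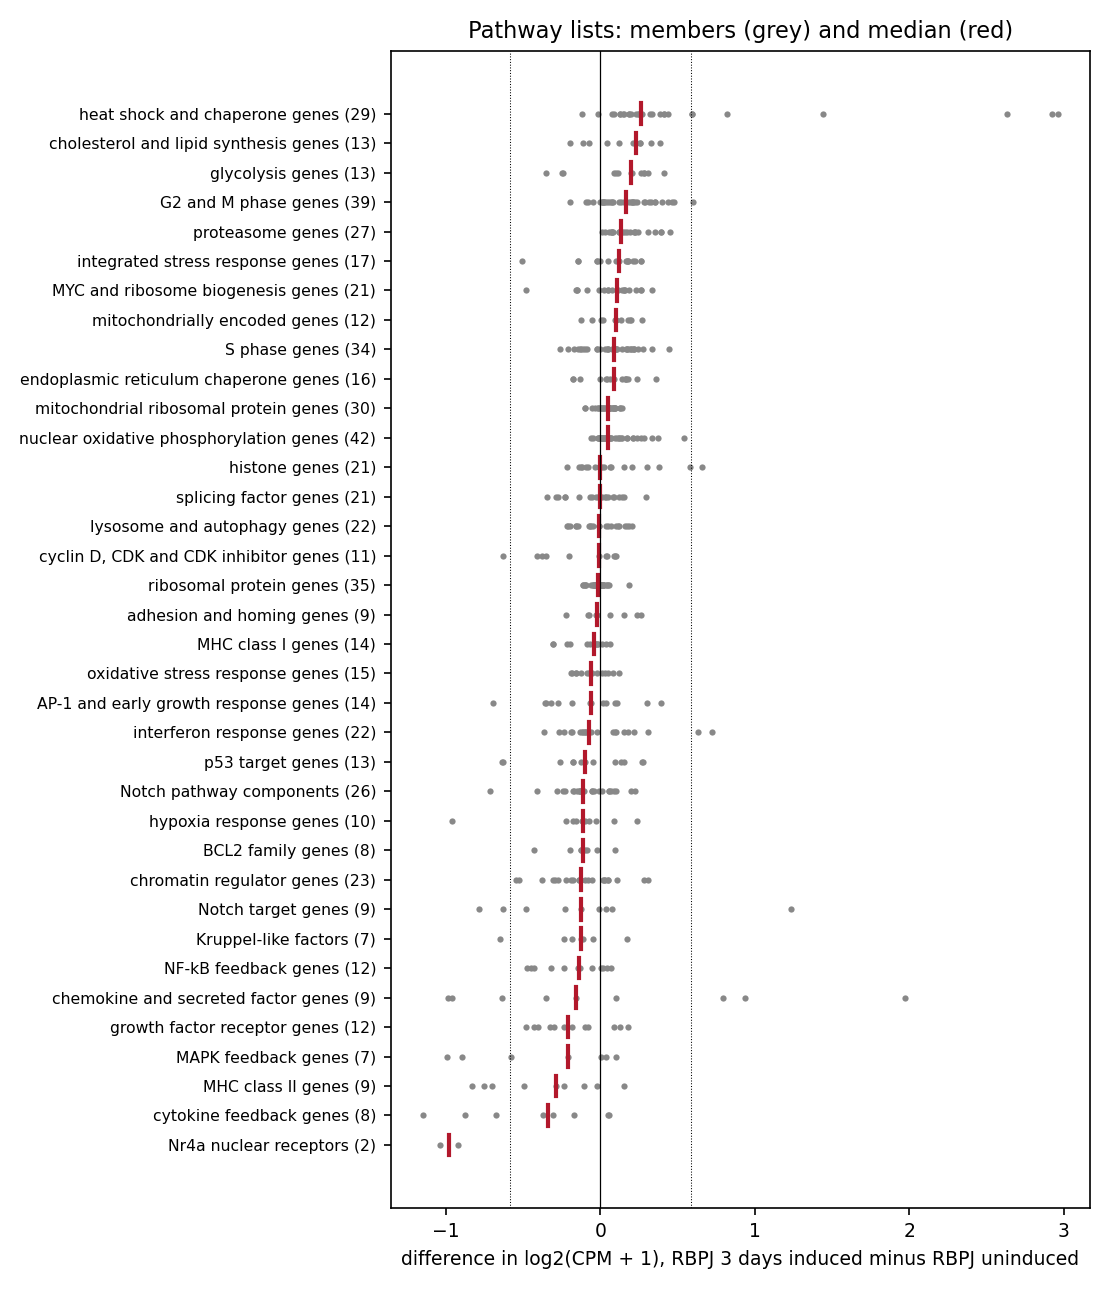
Difference in log2(CPM + 1), RBPJ 3 days induced minus RBPJ uninduced (x axis), of each measurable member (grey points) of the pathway lists (y axis, number of members in brackets), with the list's median in red and 1.5-fold as dotted lines. Heat shock genes extend to 2.96 on the higher side, and the lists with the lowest medians are the Nr4a, cytokine feedback and MHC class II genes.

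Metabolic and growth lists lay slightly above the median of all genes, with no measurable member past 1.5-fold. Glycolysis genes had a median of 0.20 over 13 members, with Ldha, which makes lactate, at 412 CPM at 3 days and 338 CPM uninduced. Cholesterol and lipid synthesis genes had a median of 0.23 over 13 members, with Idi1, an isomerase of the sterol pathway, at 19.7 CPM at 3 days and 14.9 CPM uninduced, but the median was 0.04 at a minimum of 25 CPM. Of 42 nuclear genes of oxidative phosphorylation 36 lay above 0, with a median of 0.05, and the mitochondrially encoded genes summed to 29505 CPM at 3 days and 27326 CPM uninduced. MYC and ribosome biogenesis genes had a median of 0.10 over 21 members. The listed ribosomal protein genes were an exception, with a median of -0.01, and summed to 185692 CPM at 3 days and 188349 CPM uninduced. All ribosomal protein genes together made up 39.8% of UMIs at 3 days and 40.1% uninduced.

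Genes of the G2 and M phases of the cell cycle were slightly higher as a list. Of 39, all measurable, 35 lay above 0 with a median of 0.16, and Ccnb1, the cyclin that drives mitosis, was the only gene past 1.5-fold, at 63.1 CPM at 3 days and 41.3 CPM uninduced, though 36.6% of its end words occur in another gene. Cdc20, which triggers chromosome separation, had 77.2 CPM at 3 days and 55.2 CPM uninduced, and Plk1, a mitotic kinase, had 22.4 CPM at 3 days and 16 CPM uninduced. S phase genes had a median of 0.09 over 34 members. The share of thinned cells with a cycling UMI was the same, 53.3% at 3 days (50.2 to 56.3) and 53.2% uninduced (51.0 to 55.4), whereas the unthinned shares were 55.6% at 3 days and 48.6% uninduced. The list's median was -0.06 in cells with no UMI of Mki67, Top2a, Ccnb1, Cdk1, Ube2c and Cenpf, which are cycling genes themselves.

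Of 18 measurable stem cell genes 5 lay above 0, where 47.7% of all genes did, with a median of -0.17, and summed to 2244 CPM at 3 days and 2659 CPM uninduced, with 2399 CPM at 6 days and 2506 CPM in the control library. Hlf, a transcription factor of stem cells, had 51.7 CPM at 3 days and 71.4 CPM uninduced, while Meis1, another, had 102 CPM at 3 days and 100 CPM uninduced. Txnip, an inhibitor of thioredoxin, had 67.9 CPM at 3 days and 51.5 CPM uninduced, the opposite direction. Cd48, a surface protein, had 137 CPM at 3 days and 113 CPM uninduced. It is on the list and among the 5 above 0, although stem cells are sorted as lacking it. Zfp36l2, which destabilises messenger RNA and is required in stem cells, had 239 CPM at 3 days and 393 CPM uninduced, and was the only member apart from Nr4a1 past 1.5-fold.

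Lymphoid priming genes gave no common direction beyond a median of -0.09 over 20 members. Dntt was higher at 841 CPM against 675 CPM, Rag2, which cuts antigen receptor genes, had 13.1 CPM at 3 days and 8.86 CPM uninduced, and both lay within 1.5-fold. Ly6d, a surface protein of B cell and plasmacytoid dendritic cell progenitors, was the only member past 1.5-fold, with 12.2 CPM at 3 days and 26.4 CPM uninduced. It had 29.1 CPM at 6 days and 12.5 CPM in the control library. Its 10 richest cells held 83.6% of its UMIs at 3 days and 48.4% uninduced. Cells with a Ly6d UMI made up 1.77% of thinned cells at 3 days (1.07 to 2.75) and 2.90% uninduced (2.22 to 3.72), and unthinned 1.96% at 3 days and 3.29% uninduced. Il7r, the receptor of the lymphoid growth factor IL-7, was found in 5.12% of thinned cells at 3 days (3.88 to 6.61) and 6.96% uninduced (5.90 to 8.14), and unthinned in 8.16% at 3 days and 9.40% uninduced. The thinned Il7r share was 11.0% at 6 days and 9.25% in the control library. In sums of cells, fewer cells of a kind and less RNA per cell cannot be told apart.

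S100a9 and S100a8, subunits of a protein stored by neutrophils, were at least 1.5-fold higher, but both are among the genes by which cells had been left out. S100a9 had 23 CPM at 3 days and 11.7 CPM uninduced, and S100a8 had 34.6 CPM at 3 days and 21.2 CPM uninduced. With all cells of the authors' sets the differences were 0.21 for S100a9 and 0.25 for S100a8, in place of 0.92 and 0.68, and neither passed 1.5-fold. RNA outside cells held S100a9 at 1368 CPM at 3 days and 837 CPM uninduced, far above the cells. Of 18 mature neutrophil and monocyte markers 15 were below 10 CPM, and the list summed to 292 CPM at 3 days and 213 CPM uninduced. Its part in the other differences was not tested.

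The last of the leading genes were single cases. Lrrc8a, a subunit of the volume-regulated anion channel, had 6.10 CPM at 3 days (64 UMIs) and 14.1 CPM uninduced (291 UMIs). Evi2a, whose annotation overlaps Nf1 on the opposite strand and Evi2 on the same strand, had 15 CPM at 3 days and 29.7 CPM uninduced. Fam46a, named Tent5a in the GENCODE annotation, had 15.1 CPM at 3 days and 8.47 CPM uninduced. The noncoding Gm28707 had 11.1 CPM at 3 days and 4.99 CPM uninduced, and C730034F03Rik, which overlaps Chkb on the other strand, had 19.1 CPM at 3 days and 9.64 CPM uninduced. Whether counting used strand is not given, so genes that overlap on opposite strands cannot be told apart with certainty.

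The 3-day library also allowed cells with and without a captured Rbpj transcript to be set side by side at equal depth, 450 and 624 thinned cells. These cells share 1 library, a cell without a captured UMI may still express Rbpj, and a single UMI may come from the RNA outside cells, which held Rbpj at 291 CPM at 3 days. No cell type gave a background share, and the values are given as a description of this library, for a split chosen after seeing the data. Hspa1a stood at 415 CPM in cells with an Rbpj UMI and 504 CPM in those without (fold 0.824, 0.757 to 0.897), Dnajb1 at 351 and 457 CPM (fold 0.767), and Hsp90aa1 at 1104 and 1075 CPM (fold 1.03). Socs3 stood at 19.4 CPM with and 42.6 CPM without (fold 0.455, 0.312 to 0.652), Nr4a1 at 75.2 and 122 CPM (fold 0.618, 0.509 to 0.747) and Ccl3 at 234 and 364 CPM (fold 0.641, 0.575 to 0.714).

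A cycling UMI was present in 67.3% of cells with an Rbpj UMI (62.8 to 71.7) and 43.1% (39.2 to 47.1) of cells without, and its part in these folds was not tested. Within cells that had a cycling UMI, the fold with over without was 0.666 for Socs3 (0.389 to 1.13), 0.699 for Nr4a1 (0.532 to 0.916) and 0.601 for Ccl3 (0.513 to 0.702). Within cells that had none, it was 0.380 for Socs3 (0.2 to 0.671), 0.619 for Nr4a1 (0.457 to 0.828) and 0.8 for Ccl3 (0.684 to 0.933).

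For Hes1 the fold lay on either side of 1. Over all thinned 3-day cells it stood at 32.6 CPM with an Rbpj UMI and 47.7 CPM without (fold 0.683, 0.505 to 0.918). Within cells that had a cycling UMI the fold was 0.392 (0.246 to 0.610), and within cells that had none it was 1.31 (0.862 to 1.96). Ccl5 was the opposite case, at 109 CPM with an Rbpj UMI and 27.6 CPM without (fold 3.94, 3.04 to 5.14), and its folds were 7.4 and 2.21 within both kinds of cell. Since Ccl5 UMIs come from few cells, its counting intervals are too narrow.

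**Figure D5:**
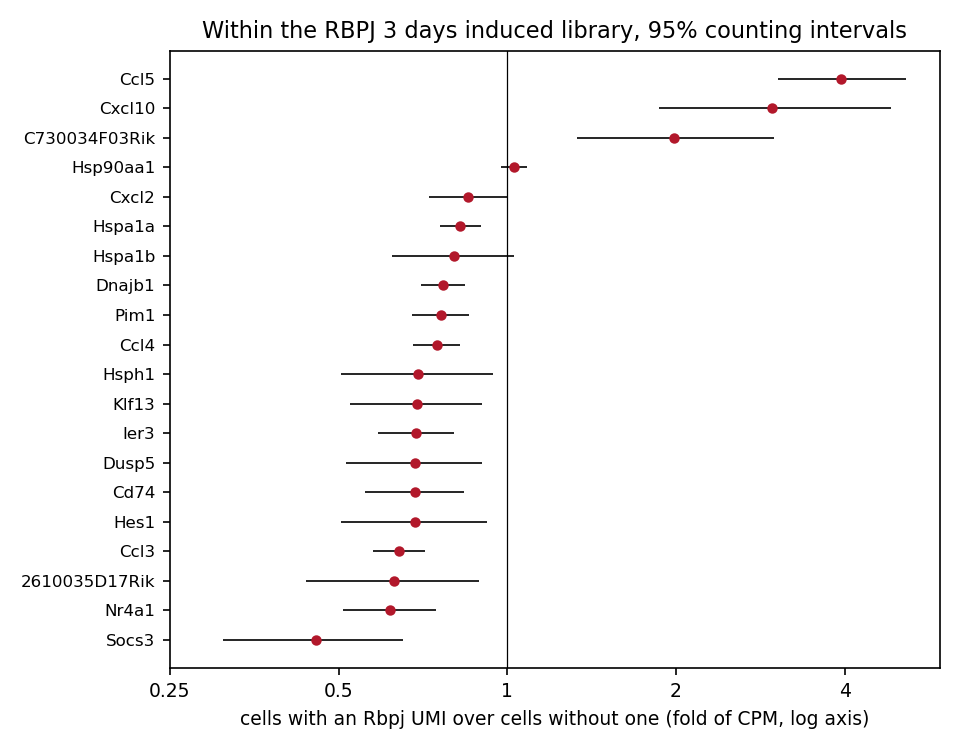
Fold of CPM in thinned RBPJ 3 days induced cells with an Rbpj UMI (450 cells) over cells of the same library without (624 cells), on a log axis, with 95% counting intervals. Socs3 stands lowest at 0.455, Hsp90aa1 is at 1.03, and Ccl5, Cxcl10 and C730034F03Rik are above 1.9.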

How the data were processed

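The deposited matrices hold whole UMI counts per gene and barcode with no cell filter, per the file headers and values. The authors' deposited log2 tables of normalised expression were used only for the barcodes of their cells. Seurat and the mm10 build are named per the submitters' processing notes; the aligner, counter and use of strand are not given in the sources used here. Genes, cells and gene lists (36 pathway lists and 12 marker lists) were chosen with earlier results of these data known, and some lists share members.

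Counts of the kept cells were summed per library and scaled to CPM by the library total. Genes needed 10 CPM in either library, the pseudocount was 1 CPM, and calls were by size alone, at 2-fold or 1.5-fold on the log2(CPM + 1) scale. For levels the 95% interval is the exact Poisson one, for folds the conditional exact one and for shares that of Clopper and Pearson. They cover counting error only. No doublet caller was run, and doublets were kept. Cells were thinned to 4700 UMIs for shares. By rule the text names Rbpj, the core Notch targets, the 15 genes that differed most in either direction, and of every list at most 3 members per direction. Segments of antigen receptors, haemoglobins and sex-linked genes are not among the 15. Other genes were named outside this rule, after their values were seen. Among them are Hspd1, Hspa8, H2-DMa, H2-Oa, H2-DMb2, H2-DMb1, H2-Ab1, Hlf, Meis1, Il7r and Kit. Coordinates and shared end words (31 bases, last 500 bases) came from GENCODE on GRCm38, and promoters from RefSeq. The calculation recovered known folds on simulated data. Tools were Python 3.11.15, numpy 2.4.6, scipy 1.17.1 and pandas 2.3.3, with scaling factors from edgeR 4.0.16 and DESeq2 1.42.0 in R 4.3.3 as alternatives. Alternatives varied the cells kept, scaling, pseudocount, minimum, depth, weight of cells, richest cells and makeup. A sum over cells chosen by stem cell transcripts is not reported here. The splits by Rbpj and cycling UMIs, and the settings that leave out cells rich in heat shock or Ccl5 UMIs or the richest 0.5% of cells of each gene, were chosen after seeing the data.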

Additional observations from a re-analysis of the deposited data

How the results depend on the processing

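No paired analysis was possible because every group is a single library. For the same reason no library could be left out. In the 13 alternatives other than those of the minimum, each of which gives every named gene a value, 81 of the 85 genes at least 1.5-fold different kept their sign throughout and 37 stayed past 1.5-fold in every setting. The counts, Rbpj included, were 8 and 4 genes at least 2-fold higher and lower and 29 and 56 at 1.5-fold. TMM and DESeq2 scaling left all of these within 1.5 times. With all cells of the authors' sets, 8 genes were 2-fold lower. With a pseudocount of 5 CPM, 2 genes were 2-fold lower, 16 were 1.5-fold higher and 32 lower. A minimum of 25 CPM leaves fewer genes and gave 14 and 28 at 1.5-fold; no minimum gave 21 and 13 at 2-fold and 150 and 219 at 1.5-fold. Thinning gave 53 genes 1.5-fold higher. Leaving out each gene's 10 richest cells, a larger share of the smaller 3-day library, gave 13 genes 2-fold lower, 15 higher and 89 lower at 1.5-fold. Cells without cycling UMIs gave 14 genes 2-fold lower, 56 higher and 176 lower at 1.5-fold. Cells under 10 heat shock UMIs, added after seeing the data, gave 7 genes 2-fold lower. Apart from the fewer cells or genes, the cause was not tested.

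Of 48 list medians 17, between -0.16 and 0.16 as reported, had the other sign in at least 1 setting. The erythroid median, whose genes include some by which cells were left out, was -3.39 with all cells of the authors' sets in place of 0.077. The median was 0.093 for p53 targets at a minimum of 25 CPM, 0.048 for chemokines and 0.056 for megakaryocyte genes with no minimum, and, without cycling UMIs, -0.063 for G2 and M phase and 0.020 for hypoxia genes. Without the 10 richest cells Cxcl10 was at -0.018 and Ifit1 at -0.19, and without cells of 3 or more Ccl5 UMIs Ifit1 was at -0.10 and Rsad2 at -0.0096. Genes near 10 CPM rest on about 100 UMIs at 3 days and are limited by depth.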

Other observations

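The 17 cells left out at 3 days, which carried neutrophil, red cell or platelet transcripts, had Rbpj at 3074 CPM (2798 to 3370), against 472 CPM in the kept 3-day cells. The 34 cells left out of the uninduced library had 6.69 CPM (0.810 to 24.2). At 6 days, Rbpj also stood higher in cells with a cycling UMI, 607 CPM (584 to 631), than in cells without, 204 CPM (189 to 218), the same order as at 3 days, while in the control library it stood at 15.7 CPM with and 22.3 CPM without a cycling UMI.

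Chromatin regulator genes, of which all 23 were measurable, had a median of -0.12, with none past 1.5-fold. Kdm6b, a demethylase of the repressive histone mark at H3K27, had 48.5 CPM at 3 days and 71.4 CPM uninduced, and Dnmt3b, a DNA methyltransferase, had 32.1 CPM at 3 days and 25.7 CPM uninduced. Growth factor receptor genes had a median of -0.21 over 12 members. Igf1r, the receptor of insulin-like growth factor, had 19.3 CPM at 3 days and 27.5 CPM uninduced, and Kit, the receptor of stem cell factor, had 44.4 CPM at 3 days and 56.0 CPM uninduced. Both lay within 1.5-fold. Myeloid progenitor genes had a median of 0.10 over 14 members, with Hdc, which makes histamine, at 13.6 CPM at 3 days and 8.62 CPM uninduced, and Ly86, a surface partner of a Toll-like receptor relative, at 8.86 CPM at 3 days and 14.6 CPM uninduced.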
